A study of Mus musculus with 50 samples.

Results

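Whole brains of mouse embryos carrying the gtf2i mutation on both alleles were compared with those of embryos carrying it on 1 allele, so the comparison covers what loss of the second allele adds to loss of the first. The count columns with the sample titles 12301-5, 11619-4 and 12419-8 made up the gtf2i/gtf2i group, and those titled 12301-7, 12419-6 and 11619-2 made up the gtf2i group, in each case replicates 1, 2 and 3 in that order. They are 6 of the 18 RNA libraries in the series and of its 50 samples, and all 11708 genes in the count table were tested. Every embryo was of strain FVB/ANTJ and was collected at E13.5, a mid-gestation embryonic day. The gtf2i genotype label was read as 1 mutant allele and gtf2i/gtf2i as 2. A further group of 3 embryos, labelled wt for the gtf2i comparison, shared the estimate of spread, and 9 libraries of a Gtf2ird1 mutant cross (wt, ird1 and ird1/ird1, 3 each, same age and strain) served in 1 contrast. The labels do not describe the mutant allele, do not give the sex of the embryos, and do not say whether an embryo shared a litter with another. The 32 chromatin immunoprecipitation and input samples were not analysed here. No source says that the libraries of a group came from separate litters, so the p-values measure the spread between these libraries.

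Gtf2i encodes TFII-I, a transcription factor built from repeated helix-loop-helix-like domains that binds DNA at initiator and E-box elements and also acts in signalling in the cytoplasm. Gtf2ird1 and Gtf2ird2 encode its relatives, and all of them lie together on mouse chromosome 5, in or beside the segment that corresponds to the Williams syndrome deletion in humans. At E13.5 the mouse brain is producing its early neurons: the dorsal telencephalon makes the first cortical neurons, the ventral telencephalon makes inhibitory neurons, and the choroid plexus and blood vessels are growing in.

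The measured level of a gene is given in CPM, a count scaled to a fixed library size after TMM normalization (trimmed mean of M values), in the order of replicates 1, 2 and 3 of a group. A gene was called where the quasi-likelihood test of edgeR gave a p under 0.05 after Benjamini-Hochberg adjustment over all 11708 genes; every adjusted p below is of this kind. Log2 fold changes are gtf2i/gtf2i over gtf2i unless another pair is named, with the standard error (SE) in parentheses.

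The 9 libraries of the gtf2i cross held 4433537 to 7231162 counts. Replicate 3 of gtf2i/gtf2i stood apart from the other gtf2i/gtf2i libraries. On the first principal component of log2 CPM it was at -1.91, among the other genotypes (-15.3 to -0.284), while replicates 1 and 2 were at 23.6 and 25.1. Its share of counts on small noncoding RNA genes was 0.635%, close to the 0.534% of wt replicate 3, against 1.6% to 4.84% in the other 7 libraries. The rank correlation across genes between transcript length and the deviation of a library from the mean of all 9 also varied. It was 0.333 in gtf2i/gtf2i replicate 3 and -0.25 and -0.257 in replicates 1 and 2. In gtf2i it was 0.206, 0.14 and 0.0317, and in wt -0.395, 0.129 and 0.274. Replicates 1 and 2 of gtf2i/gtf2i thus lay below all gtf2i libraries in this length trend, and replicate 3 above them. Kdm5c, an X-linked gene that escapes X inactivation and is therefore usually higher in XX than in XY tissue, was at 286, 303 and 288 CPM in wt, 401, 395 and 378 CPM in gtf2i and at 312, 394 and 385 CPM in gtf2i/gtf2i. All 6 mutant libraries were above the 3 wt libraries, with gtf2i/gtf2i replicate 1 the nearest to them. Eif2s3x, another X-linked gene of this kind, divided the libraries differently, at 10.8 to 13.9 CPM in wt, 17.6, 16.6 and 16.6 CPM in gtf2i and at 11.2, 11.9 and 19.6 CPM in gtf2i/gtf2i. Here gtf2i/gtf2i replicates 1 and 2 lay in the wt range, and replicate 3, the library that stood apart, lay above all others. Kdm5c was 1 of 4 sex-linked genes in the table, of which 0 were called between the mutants, 0 had an unadjusted p under 0.05 and DESeq2 called 0. The listed Y-linked genes and Xist were not in the table, and the part of sex in the results was not tested beyond a fit with this level as a covariate.

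Gtf2i itself was the first check of the labels. It was at 598, 656 and 617 CPM in wt, 375, 363 and 364 CPM in gtf2i and at 82.7, 81.5 and 82.1 CPM in gtf2i/gtf2i. The 3 genotypes did not overlap, and the level fell with each mutant allele, to 58.9% of the wt mean with 1 and 13.2% with both. Loss of the second allele left 22.4% of the gtf2i level, a log2 fold change of -2.16 (SE 0.0766, adjusted p = 1.36e-09). An exact two-sided permutation test on these 3 against 3 libraries gave p = 0.1, the smallest it can give. Reads therefore remained on the gene in gtf2i/gtf2i brains, and the sources used here do not say which part of the transcript the mutation alters. Gtf2i lies at chr5:134237832-134317678 (mm10, the same assembly as GRCm38.p6 of RefSeq).

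The neighbour and paralog Gtf2ird1, a transcription factor known to repress its own promoter, moved the other way. It was at 97.9, 83.9 and 95.3 CPM in wt, 126, 143 and 138 CPM in gtf2i and at 284, 268 and 246 CPM in gtf2i/gtf2i. The 3 genotypes again did not overlap, and every library of gtf2i/gtf2i was above every library of gtf2i. The rise from 1 to 2 mutant alleles was a log2 fold change of 0.97 (SE 0.0895, adjusted p = 7.08e-05), and it remained called in each of the 9 fits that left out 1 library of the gtf2i cross (adjusted p 3.24e-06 to 0.00099). The first step, gtf2i against wt, had a log2 fold change of 0.55 and was not called. Gtf2ird2, the remaining member, was at 34.5, 30.8 and 32.8 CPM in gtf2i and at 37.3, 32.5 and 33.8 CPM in gtf2i/gtf2i. Its groups overlapped and it was not called (0.08, adjusted p = 0.778). How reads shared between these related genes were counted is not given in the sources used here.

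**Figure D1:**
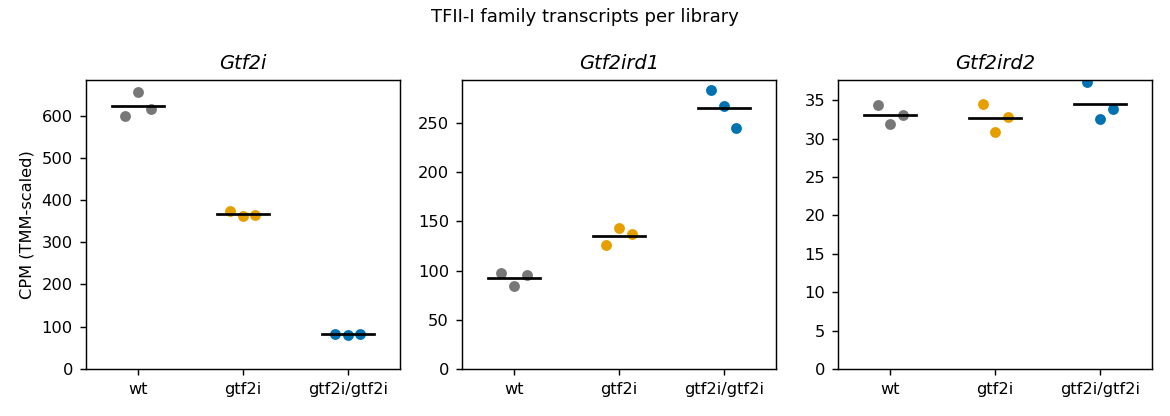
Level of the 3 TFII-I family genes in each library of the gtf2i cross (points, TMM-scaled CPM on a linear axis from 0) by genotype, with the mean of 3 libraries as a line. Gtf2i falls from 624 to 367 and 82.1 CPM, Gtf2ird1 climbs from 92.4 to 136 and 266 CPM, and Gtf2ird2 stays between 30.8 and 37.3 CPM.

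The start of Gtf2ird1 is shown because it held more copies of the bicoid-type core GGATTA, a sequence that GTF2IRD1 protein is known to bind, than any other promoter searched. A window of 250 bases before to 50 bases after 1 RefSeq start per gene (GRCm38.p6) was available for 9097 of the 11708 genes, and both strands were searched. In the Gtf2ird1 window (chr5:134456667-134456966, minus strand) 4 matches were found, 236, 157, 106 and 69 bases before the start. It was the 1 window of 9097 with 3 or more, and 22 windows held at least 2. The 99 bases upstream of the extent of the RefSeq gene model (chr5:134456868-134456966) hold the first pair of matches. The other pair lies in the 151 bases before this start that fall within that extent, and 30 bases around each are given (chr5:134456805-134456834 and chr5:134456768-134456797). The runs read 5′ to 3′ along the gene, with capitals for GGATTA or its reverse complement TAATCC.
Gtf2ird1 upstream: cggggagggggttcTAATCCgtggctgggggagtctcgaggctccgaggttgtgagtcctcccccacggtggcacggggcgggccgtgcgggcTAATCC
Gtf2ird1 match at 106: tgcgcggggctgGGATTAgggccggggcga
Gtf2ird1 match at 69: gcaatcttactgGGATTAcagaacaaagag

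These matches are a description of the window and not binding sites. The gene and the motif were chosen after the values were seen. Across all 9097 windows GGATTA was in 5.1%, against 8.47% of the 118 windows of genes called higher and 3.27% of the 153 of genes called lower. The E-box CACGTG was in 10.4% of all windows, 2.54% of those called higher and 5.23% of those called lower. The E-box form CAGATG, which neuronal helix-loop-helix factors are known to bind, was in 10.7%, 16.9% and 12.4%. No test was made of these shares.

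Beyond the family, the second allele's loss was accompanied by calls in both directions. Of 11708 genes, 365 (3.12%) were called: 156 (1.33%) were higher and 209 (1.79%) lower in gtf2i/gtf2i than in gtf2i. An unadjusted p under 0.05 was found for 1935 of the 11708 genes (16.5%). The counts of list members in this fit are to be read against these shares of all genes. Counts from a fit that left out a library are to be read against the calls of that fit over all 11708 genes, given in the next paragraph. Of the called genes, 50 differed by more than 2-fold, 20 higher and 30 lower, and the median size over the 365 was 0.653 on the log2 scale. All 365 were among the 2247 genes (19.2%) whose 3 gtf2i/gtf2i libraries did not overlap the 3 gtf2i libraries. The median log2 fold change of all genes was 0.00655. Genes called lower had a median transcript length of 4472 bases, those called higher 3608 and all tested 3633.5. The part of length in the calls was not tested beyond fits with the length trend removed. Called genes were spread over the chromosomes, from 2.02% of genes tested on chromosome 15 to 3.87% on chromosome 2, with 3.82% on chromosome 5, where Gtf2i lies. The same fit called 1 gene (0.00854%), Gtf2i, for gtf2i against wt and 110 genes (0.94%) for gtf2i/gtf2i against wt. DESeq2 gave 504 calls for the comparison of mutants, and 359 of the 365 were among them.

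The number of calls rested on single libraries. Without replicate 2 of gtf2i it was 67 (33 higher, 34 lower) and without replicate 3 of gtf2i it was 70 (36 higher, 34 lower). Without replicate 2 of gtf2i/gtf2i it was 83 (38 higher, 45 lower) and without replicate 1 of gtf2i/gtf2i it was 134 (85 higher, 49 lower). Leaving out gtf2i/gtf2i replicate 3, the library that stood apart, gave 1376 (528 higher, 848 lower). Without replicate 1 of gtf2i the number was 343 (109 higher, 234 lower). Without replicate 1, 2 or 3 of wt it was 381 (169 higher, 212 lower), 290 (125 higher, 165 lower) and 342 (160 higher, 182 lower). With the Kdm5c level as a covariate the count was 161, of which 59.6% were higher, against 42.7% in the main count. Of the 66 called genes named by rule, 17 lost the call with this covariate: Ndrg1, Clip2, Hes5, Vim, Grin1, L1cam, Sema3c, Ntng2, Jag1, Ptch1, Slc2a1, Col5a2, Lum, Zmym3, Stard4, Apobec3 and Dlk1. All 365 genes kept their sign in each of these fits. A set of 56 genes, 26 higher and 30 lower, was called in all 9 fits that left out 1 library, and the genes described first below belong to it unless a loss is stated.

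**Figure D2:**
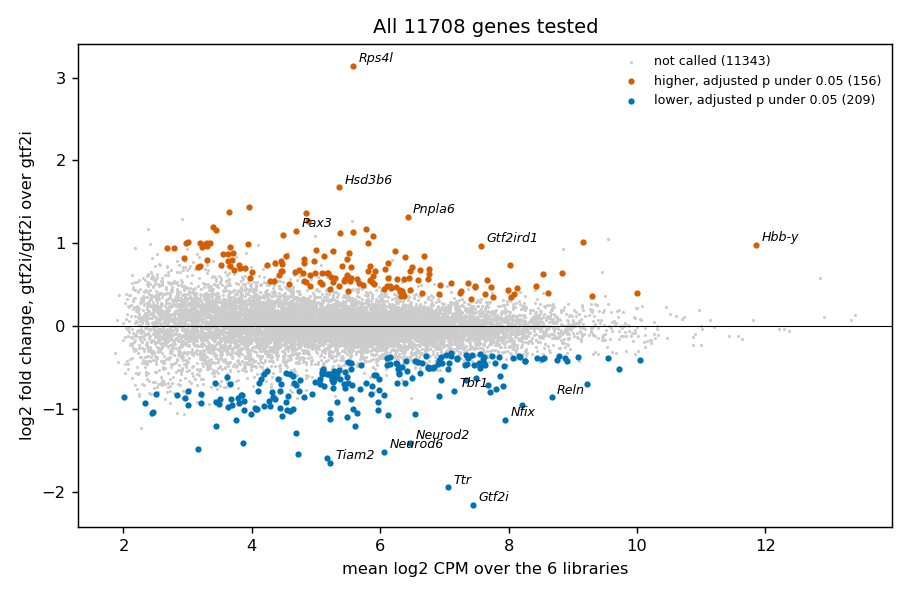
Log2 fold change of gtf2i/gtf2i over gtf2i against mean log2 CPM of the 6 libraries for all 11708 genes, with genes called higher (156) in orange, lower (209) in blue and the rest in grey. Rps4l stands highest at 3.14 and Gtf2i lowest at -2.16.

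The largest rise was that of Rps4l, which RefSeq lists as a transcribed pseudogene resembling the ribosomal protein gene Rps4x (chr6:148354656-148355596). It was at 24.4, 20.2 and 23.8 CPM in wt, 13.1, 17 and 18.3 CPM in gtf2i and at 144, 159.8 and 126 CPM in gtf2i/gtf2i. The 3 gtf2i/gtf2i libraries were far above all 6 others, and the fold change was 3.14 (SE 0.138) on the log2 scale (adjusted p = 1.26e-08). Per kilobase of transcript the mean level was 17.1 CPM in gtf2i against 152 CPM in gtf2i/gtf2i, while Rps4x was at 121 and 136 CPM per kilobase and was not called (0.16, adjusted p = 0.682). Reads common to both could have been split or lost in the counting.

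Hsd3b6, a 3-beta-hydroxysteroid dehydrogenase of steroid synthesis, was at 25.2, 21.1 and 22.8 CPM in gtf2i and at 73.8, 82 and 65.4 CPM in gtf2i/gtf2i, with 31.5, 30.4 and 23.7 CPM in wt. Its gtf2i/gtf2i libraries were each far above every other library of the cross, a log2 fold change of 1.67 (SE 0.133, adjusted p = 1.61e-05). Pnpla6, the neuropathy target esterase that breaks down membrane phospholipids, was at 50.0, 54.4 and 59.3 CPM in gtf2i and at 136, 129.8 and 143 CPM in gtf2i/gtf2i, a log2 fold change of 1.32 (SE 0.0932, adjusted p = 4.95e-06). The groups did not overlap and their spread was narrow. Gas2l1, which links actin filaments to microtubules, rose from 32.8, 31.3 and 32.4 CPM to 74.8, 68 and 68.9 CPM, a log2 fold change of 1.13 (SE 0.0964, adjusted p = 3.12e-05). Tmem267, a transmembrane protein gene, rose from 19.3, 17 and 17.3 CPM to 42.6, 43.1 and 52.4 CPM (1.37, adjusted p = 0.000104). For these 4 genes the first step, gtf2i against wt, had log2 fold changes of -0.30, 0.18, 0.10 and -0.16, none of them called.

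Among the other genes of the 12 largest rises, Nxt2, a cofactor of nuclear RNA export (1.44, adjusted p = 0.000545), Gm38534, a long noncoding RNA (1.38, adjusted p = 0.000701), and Afap1l2, an actin-associated adaptor (1.16, adjusted p = 0.00427), had between 6.39 and 11 CPM in gtf2i and between 15.2 and 28.2 CPM in gtf2i/gtf2i. Slc4a1, the band 3 anion exchanger of red blood cells (1.17, adjusted p = 0.00345), and Pax3, a factor of the dorsal neural tube and neural crest (1.15, adjusted p = 0.00542), are described with their lists below. Shh, the sonic hedgehog signal of the ventral midline, was at 13, 11.1 and 7.21 CPM in wt, 7.08, 6.27 and 7.5 CPM in gtf2i and at 14.3, 18.5 and 15.6 CPM in gtf2i/gtf2i. Its gtf2i/gtf2i libraries were above all 6 others (1.20, adjusted p = 0.0104), but the call was lost without replicate 2 of gtf2i or replicate 2 of gtf2i/gtf2i (adjusted p up to 0.0644). Slc16a3, the lactate exporter MCT4, was at 18.3, 17.4 and 21.9 CPM in gtf2i and at 45, 66 and 30.8 CPM in gtf2i/gtf2i (1.27, adjusted p = 0.0189). Its gtf2i/gtf2i libraries were scattered, replicate 3 nearest to the gtf2i group, and leaving out replicate 2 or 3 of gtf2i or replicate 1 or 2 of gtf2i/gtf2i ended the call (adjusted p up to 0.1).

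**Figure D3:**
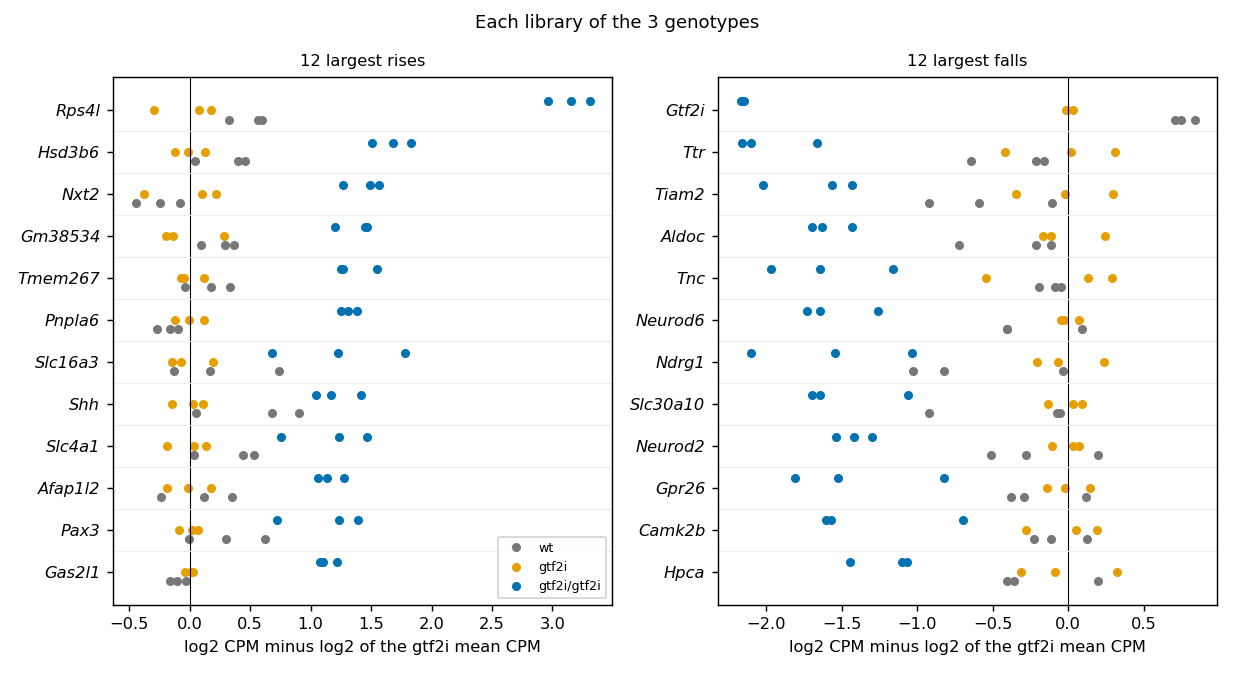
The 12 largest rises (left) and 12 largest falls (right): log2 CPM of each library minus the log2 of the gtf2i mean CPM of that gene, for wt (grey), gtf2i (orange) and gtf2i/gtf2i (blue). The 24 genes were chosen for no overlap of the 3 blue and the 3 orange points, so that separation follows from the choice. The blue points spread most in Slc16a3, Ndrg1 and Gpr26.

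Among the falls, Ttr came next after Gtf2i. Ttr encodes transthyretin, the thyroid hormone carrier made by choroid plexus epithelium. It was at 170.5, 231 and 239 CPM in wt, 270.4, 330.5 and 199.8 CPM in gtf2i and at 62.2, 59.8 and 84.3 CPM in gtf2i/gtf2i. Every gtf2i/gtf2i library was far below the lowest library of the other genotypes, a log2 fold change of -1.95 (SE 0.185, adjusted p = 8.77e-05). Of the 18 choroid plexus and roof plate genes in the table, Ttr was the 1 called lower and 0 were called higher (DESeq2 called 1 lower and 2 higher), while 10 had an unadjusted p under 0.05, against 16.5% of all genes. Their median log2 fold change was 0.26 against 0.00655 for all genes. The list mixes 2 kinds of gene. Of members known from choroid plexus epithelium, Slc4a10 (-0.79), Clic6 (-0.53), Trpm3 (-0.36), Enpp2 (-0.16) and Folr1 (-0.13) were below 0. Of secreted signals, Rspo1 (0.83), Wnt8b (0.52) and Rspo2 (0.51) were above 0. The list did not divide cleanly by sign: Igf2 (0.40), Cab39l (0.36) and Igfbp2 (0.26) were also above 0, and the signal Wnt2b (-0.11) was below it. None of these was called, and of all 18 members 10 were above 0 and 8 below. The summed CPM of the list, 778 to 926 in gtf2i against 739.5 to 795 in gtf2i/gtf2i, overlapped. Without replicate 3 of gtf2i/gtf2i the list had 2 called lower and 4 higher.

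Aldoc, the brain form of the glycolytic enzyme aldolase, and Tnc, the matrix protein tenascin C, are both expressed in radial glia. Aldoc was at 56.1, 58.2 and 74.7 CPM in gtf2i and at 20.3, 23.4 and 19.4 CPM in gtf2i/gtf2i, a log2 fold change of -1.59 (SE 0.167, adjusted p = 0.000209). Tnc was at 31.9, 51 and 57 CPM in gtf2i and at 11.9, 14.9 and 20.8 CPM in gtf2i/gtf2i, a log2 fold change of -1.55 (SE 0.215, adjusted p = 0.00237). In both genes all gtf2i/gtf2i libraries were below all gtf2i and wt libraries, and neither lost its call when any 1 library was left out. Aldoa, the widely expressed aldolase, was not called (0.28, adjusted p = 0.272).

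Of the other large falls, Tiam2, an activator of the small GTPase Rac, was at 53, 66.2 and 82.5 CPM in gtf2i and at 16.5, 22.7 and 25 CPM in gtf2i/gtf2i (-1.66, adjusted p = 0.00132). Its wt level (44.7, 35.4 and 62.3 CPM) lay above all gtf2i/gtf2i libraries and overlapped gtf2i. Slc30a10, a manganese exporter (-1.42, adjusted p = 0.00542), and Gpr26, an orphan receptor (-1.30, adjusted p = 0.00472), also remained called with any 1 library left out. Camk2b, a calcium-dependent kinase of synapses (-1.21, adjusted p = 0.00739), lost its call without replicate 3 of gtf2i (adjusted p = 0.0512). Its level was 25.7, 25.2 and 47.1 CPM in gtf2i/gtf2i, highest in replicate 3, against 63, 79.3 and 87.2 CPM in gtf2i. Hpca, the calcium sensor hippocalcin (-1.21, adjusted p = 0.0128), and Ndrg1, a gene known to respond to hypoxia (-1.48, adjusted p = 0.0156), each lost the call without replicate 2 or 3 of gtf2i or replicate 1 or 2 of gtf2i/gtf2i, with adjusted p up to 0.0835 and 0.0905.

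Of 31 factors of the dorsal telencephalon and of cortical neurons, all 31 were in the table, and more of them were called lower than in any other list in this fit. Without replicate 3 of gtf2i/gtf2i, the neuron list (28) and the axon guidance list (20) had more called lower than the cortical list (16). In gtf2i/gtf2i 14 of them were called lower, 0 higher and 17 were not called, with 24 of the 31 below 0. The background was 1.79% of all genes called lower. The median log2 fold change of the list was -0.318. Neurod6 and Neurod2, helix-loop-helix factors of excitatory neurons, fell most. Neurod6 was at 85.7, 85.6 and 121 CPM in wt, 112, 119 and 110.1 CPM in gtf2i and at 34.3, 36.4 and 47.5 CPM in gtf2i/gtf2i, a log2 fold change of -1.52 (SE 0.149, adjusted p = 0.000104). All gtf2i/gtf2i libraries were below all 6 others. Neurod2 was at 119, 101 and 166 CPM in wt, 134, 152 and 147 CPM in gtf2i and at 49.8, 53.8 and 58.6 CPM in gtf2i/gtf2i, a log2 fold change of -1.41 (SE 0.15, adjusted p = 0.000209), with the same separation. Tbr1, the factor of early-born deep-layer neurons, was at 188, 190.1 and 179.8 CPM in gtf2i and at 112, 105 and 106 CPM in gtf2i/gtf2i, a log2 fold change of -0.78 (SE 0.0834, adjusted p = 0.000209). Nfix, a nuclear factor I family member, was at 321, 381 and 401 CPM in gtf2i and at 151, 166 and 184 CPM in gtf2i/gtf2i, a log2 fold change of -1.14 (SE 0.138, adjusted p = 0.000644).

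Other called factors included Eomes (-0.91), the mark of intermediate progenitors, and Bcl11b (-0.80), Fezf2 (-0.69), Sox5 (-0.69), Bhlhe22 (-0.75), Zbtb18 (-0.47), Nfia (-0.65) and Nfib (-0.95) of postmitotic neurons and of nuclear factor I. The progenitor factors Pax6 (-0.02), Emx2 (0.00), Lhx2 (-0.17) and Neurog2 (-0.11) were not called, and neither was Neurog1 (0.59). Neurod6, Neurod2, Tbr1, Nfix, Nfib, Eomes, Bcl11b and Bhlhe22 were called in every fit that left out 1 library. The count of lower factors was 9 without replicate 2 of gtf2i and 10 without replicate 2 of gtf2i/gtf2i, and it was 16 without replicate 3 of gtf2i/gtf2i. Factors called higher numbered 2 without replicate 1 of gtf2i and 2 without replicate 3 of gtf2i/gtf2i. DESeq2 called 14 lower and 1 higher. The summed CPM of the list was 5105 to 5369 in gtf2i and 3905 to 4293 in gtf2i/gtf2i, so the groups did not overlap. In whole brain, fewer cells of a type and less RNA per cell cannot be told apart. Of the 26 list members with a promoter window, 0 held GGATTA, 1 held CACGTG and 3 held CAGATG.

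Genes of more posterior brain showed the opposite sign. Of 46 listed factors and signals of the diencephalon, midbrain, hindbrain and dorsal neural tube, 35 were in the table, 10 were called higher and 0 lower, and 32 of the 35 were above 0. The background was 1.33% of all genes called higher, and the list's median log2 fold change was 0.381. Pax3 was at 18.3, 17.7 and 16.4 CPM in gtf2i and at 28.8, 41.2 and 45.9 CPM in gtf2i/gtf2i, a log2 fold change of 1.15 (SE 0.185, adjusted p = 0.00542). Lhx5, a LIM-homeodomain factor of diencephalon and spinal interneurons, was at 70.6, 69.5 and 71 CPM and 98.7, 117 and 117 CPM, a log2 fold change of 0.66 (SE 0.0982, adjusted p = 0.00354). The Iroquois factors Irx2 (0.72, adjusted p = 0.00249) and Irx3 (0.66, adjusted p = 0.00586) pattern the neural tube behind the telencephalon. Irx2 was at 45.9, 46.7 and 41.7 CPM in gtf2i and at 67.7, 72.8 and 81 CPM in gtf2i/gtf2i, without overlap. Those 4 genes were called in every fit that left out 1 library. Tal2 (1.00), Gata2 (0.76) and Tal1 (0.48), which specify midbrain inhibitory neurons, Lhx1 (0.68), Irx1 (0.58) and Irx5 (0.64) made up the rest of the called members.

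Dbx1, a progenitor factor of the diencephalon and hindbrain outside this list, was at 53.9, 57.3 and 52 CPM in wt, 43.7, 40.8 and 38.5 CPM in gtf2i and at 71.1, 102 and 88 CPM in gtf2i/gtf2i, a log2 fold change of 1.09 (SE 0.125, adjusted p = 0.000507). It was high in all 3 gtf2i/gtf2i libraries. The posterior list had 4 members called higher without replicate 3 of gtf2i, 5 without replicate 2 of gtf2i/gtf2i and 6 without replicate 1 or 2 of gtf2i. Without replicate 3 of gtf2i/gtf2i it had 12. Its summed CPM was 2104 to 2372 in gtf2i, 2379 to 3269 in gtf2i/gtf2i and 2500 to 2623 in wt, so the mutant groups were separated by the narrow gap between 2372 and 2379 and wt lay within the gtf2i/gtf2i range. Of its 26 members with a promoter window, 0 held GGATTA, 4 held CACGTG and 2 held CAGATG. In the plot of list members the medians of the cortical and posterior lists lie on opposite sides of 0, while 7 of 31 cortical members lie above 0 and 3 of 35 posterior members below it.

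**Figure D4:**
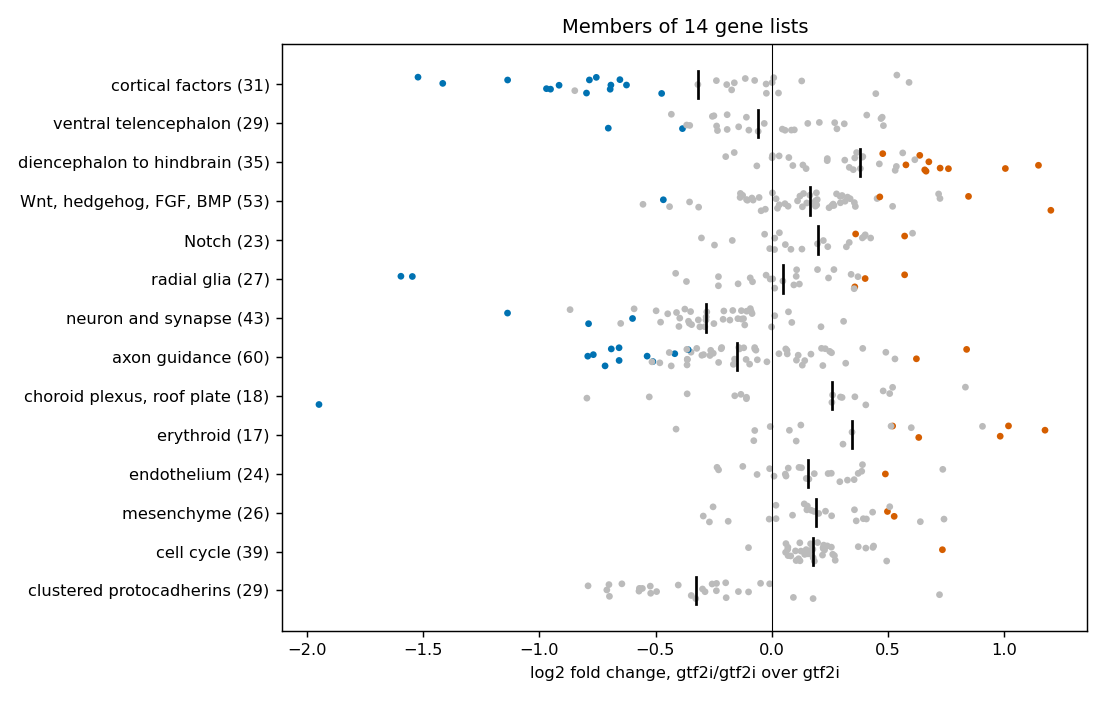
Log2 fold change of gtf2i/gtf2i over gtf2i for each measured member of 14 gene lists (points, jittered vertically; number of members in parentheses), called higher in orange, called lower in blue and not called in grey, with the list median as a black bar. The cortical factors have 14 blue points and a median of -0.318, and the diencephalon to hindbrain list has 10 orange points and a median of 0.381.

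Of 29 genes of the ventral telencephalon and of inhibitory neurons in the table, 2 were called lower and 0 higher, against 1.79% and 1.33% of all genes. The median was -0.0585, and 9 had an unadjusted p under 0.05, against 16.5% of all genes. Lhx6, a factor of migrating interneurons, was at 47.5, 59.8 and 59.4 CPM in gtf2i and at 36.5, 33 and 32.9 CPM in gtf2i/gtf2i (-0.70, adjusted p = 0.00925). Dlx1, a homeobox factor of the same lineage, was at 189, 180.3 and 194 CPM and 156, 139 and 137 CPM (-0.38, adjusted p = 0.0308). The groups did not overlap in either gene, yet neither was called without replicate 2 or 3 of gtf2i, and Dlx1 was also lost without replicate 1 of gtf2i or replicate 2 of gtf2i/gtf2i (adjusted p up to 0.0628 and 0.164). DESeq2 called 2 lower and 2 higher.

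Of 43 neuron and synapse genes that were measured, 3 were called lower, against 1.79% of all genes, and 0 higher. Of the 43, 22 had an unadjusted p under 0.05, 38 were below 0 and the median was -0.282. The called genes were Grin1, an NMDA receptor subunit (-1.14, adjusted p = 0.025), Syn2, a synaptic vesicle protein (-0.79, adjusted p = 0.0244), and L1cam, an axonal adhesion molecule (-0.60, adjusted p = 0.0325). L1cam was at 273, 304 and 294 CPM in gtf2i and at 165, 164 and 244 CPM in gtf2i/gtf2i. Replicate 3 of gtf2i/gtf2i was the nearest to the gtf2i group. The 3 calls were lost without replicate 2 or 3 of gtf2i or replicate 1 or 2 of gtf2i/gtf2i, which left 0, whereas 28 members were called lower without replicate 3 of gtf2i/gtf2i and 7 without replicate 1 of gtf2i. The summed CPM of the list was 8684 and 9176 in gtf2i/gtf2i replicates 1 and 2 and 11643 in replicate 3, against 10866 to 11569 in gtf2i. DESeq2 called 5 lower, removing the length trend gave 9 and the Kdm5c covariate 1.

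Of 60 axon guidance ligands and receptors in the table, 10 were called lower and 2 higher, against 1.79% and 1.33% of all genes, and the median was -0.151. Efnb2, a transmembrane ephrin ligand, was at 240.4, 220.2 and 211 CPM in gtf2i and at 163, 161 and 147 CPM in gtf2i/gtf2i, a log2 fold change of -0.51 (SE 0.0797, adjusted p = 0.00465), and its call withstood the removal of each library. Efna2, another ephrin, was higher at 125, 150.2 and 131 CPM against 89.7, 86.5 and 87.3 CPM (0.62, adjusted p = 0.00849), with the call lost without replicate 2 or 3 of gtf2i or replicate 2 of gtf2i/gtf2i (adjusted p up to 0.0618). Sema3c, a secreted semaphorin (-0.79, adjusted p = 0.0139), was lost without replicate 1 or 2 of gtf2i/gtf2i and Ntng2, a netrin-G adhesion protein (-0.72, adjusted p = 0.0181), also without replicate 2 or 3 of gtf2i. Robo3, the receptor that controls midline crossing, was the second called higher (0.84, adjusted p = 0.0303). The plexin receptors Plxna2 (-0.42), Plxna3 (-0.36) and Plxna4 (-0.77), Sema4d (-0.66), Ntng1 (-0.69) and the ephrin receptors Epha5 (-0.66) and Ephb6 (-0.54) were the others called lower. The lower count was 2 without replicate 2 or 3 of gtf2i or replicate 2 of gtf2i/gtf2i, 1 without replicate 1 of gtf2i/gtf2i, 20 without replicate 3 of gtf2i/gtf2i and 2 with the Kdm5c covariate. No member was called higher without replicate 2 or 3 of gtf2i or replicate 2 of gtf2i/gtf2i.

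Reln encodes reelin, the secreted protein of Cajal-Retzius cells that guides cortical layering. It was at 452, 465 and 539 CPM in wt, 497, 588 and 567 CPM in gtf2i and at 302, 269 and 338 CPM in gtf2i/gtf2i. All gtf2i/gtf2i libraries were below all 6 others, a log2 fold change of -0.86 (SE 0.104, adjusted p = 0.000644). Of 13 genes of reelin signalling and Cajal-Retzius cells, 2 were called lower, Reln and the calcium-binding protein gene Calb2 (-0.64, adjusted p = 0.0324), and 3 higher, Lhx5, Lhx1 and Nhlh2 (0.71, adjusted p = 0.00345), a helix-loop-helix factor. The called members of the list thus did not share a direction, and Lhx5 and Lhx1 are also counted in the posterior list. Without replicate 1, 2 or 3 of gtf2i or replicate 1 or 2 of gtf2i/gtf2i the list had 1 called lower, and Reln remained called in all 9 such fits.

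In progenitors, marks of radial glia split. Of 27 radial glia genes measured, 3 were called higher and 2 lower, with a median of 0.0476. Aldoc and Tnc were the falls. Hes5, an effector of Notch (0.57, adjusted p = 0.0267), and the intermediate filament genes Vim (0.40, adjusted p = 0.0346) and Nes (0.36, adjusted p = 0.0421) were the rises. Vim was at 937, 874 and 857 CPM in gtf2i and at 1185, 1274 and 1065 CPM in gtf2i/gtf2i, without overlap. No rise was called without replicate 2 or 3 of gtf2i or replicate 1 or 2 of gtf2i/gtf2i or with the Kdm5c covariate, 1 was called without replicate 2 of wt, and 7 without replicate 3 of gtf2i/gtf2i, where 4 members were called lower. Of 23 Notch genes 2 were called higher, Hes5 and the ligand Jag1 (0.36, adjusted p = 0.0401), and 0 lower, with 18 above 0 and a median of 0.197. Neither was called in those same 4 fits or with the covariate, 1 was without replicate 1 of gtf2i or replicate 2 of wt, and 11 were without replicate 3 of gtf2i/gtf2i. Without replicate 1 of wt, without replicate 3 of wt and by DESeq2 the count was 4.

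Ccnd1, the cyclin D1 gene that drives entry into S phase, was at 243, 241 and 203 CPM in wt, 226, 188 and 191 CPM in gtf2i and at 363, 360.2 and 283 CPM in gtf2i/gtf2i. The gtf2i/gtf2i libraries were above all 6 others, a log2 fold change of 0.73 (SE 0.113, adjusted p = 0.00427), in every fit that left out 1 library. It was the 1 called of 39 replication and mitosis genes, of which 38 were above 0 with a median of 0.177. Without replicate 3 of gtf2i/gtf2i the count was 12, and without replicate 1 of wt or replicate 3 of wt it was 2. Replication-dependent histones had 0 called of 57 (DESeq2 also 0), 55 above 0 and 4 with an unadjusted p under 0.05, while 29 were called higher without replicate 3 of gtf2i/gtf2i and 1 without replicate 1 of gtf2i. Histone and cell-cycle levels thus separated gtf2i/gtf2i replicate 3 from replicates 1 and 2: the summed histone CPM was 15430 and 14209 in replicates 1 and 2 and 9555 in replicate 3, against 10693 to 12237 in gtf2i. The share of small noncoding RNA divided these libraries in the same way, and its part in the result was not tested.

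Among Wnt, hedgehog, FGF and BMP genes, 53 were measured, of which 3 were called higher and 1 lower, and the median was 0.164. Fzd10, a Wnt receptor of the dorsal neural tube, was at 88.4, 99 and 82.8 CPM in wt, 79.9, 84.7 and 67.1 CPM in gtf2i and at 141, 142 and 132 CPM in gtf2i/gtf2i, a log2 fold change of 0.85 (SE 0.102, adjusted p = 0.000644). All gtf2i/gtf2i libraries were above all others and the call was kept in the 9 fits. Ptch1, the hedgehog receptor and target (0.46, adjusted p = 0.0274), was higher together with Shh, and Cdon, a hedgehog co-receptor (-0.47, adjusted p = 0.0128), was lower. Ptch1 was not called with the Kdm5c covariate, without replicate 2 or 3 of gtf2i or replicate 1 or 2 of gtf2i/gtf2i, and Cdon was not without replicate 2 or 3 of gtf2i (adjusted p up to 0.149 and 0.056). The higher count was 1 without replicate 2 of gtf2i or replicate 2 of gtf2i/gtf2i, 5 without replicate 3 of wt and 13 without replicate 3 of gtf2i/gtf2i.

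Part of the red blood cell list was higher in gtf2i/gtf2i. Of 17 measured, 5 were called higher and 0 lower, 13 were above 0 and the median was 0.345. They were the embryonic globin genes Hbb-y (0.98, adjusted p = 0.00589) and Hba-x (1.02, adjusted p = 0.0133), the globin gene Hba-a1 (0.63, adjusted p = 0.0482), Alas2 of haem synthesis (0.52, adjusted p = 0.0383) and Slc4a1. Hbb-y was at 3670.2, 2995 and 2632 CPM in wt, 2885, 2588 and 2512 CPM in gtf2i and at 4166, 6658 and 4949 CPM in gtf2i/gtf2i. Slc4a1 was at 53.2, 50.0 and 37.5 CPM in wt, 40.4, 37.6 and 32.3 CPM in gtf2i and at 86.4, 101 and 61.8 CPM in gtf2i/gtf2i. In both genes the gtf2i/gtf2i libraries lay above all 6 others, with replicate 2 the highest. Only Slc4a1 of the 5 was called in all 9 fits. The count was 1 without replicate 2 or 3 of gtf2i, 2 without replicate 2 of gtf2i/gtf2i, 3 without replicate 1 of gtf2i and 8 without replicate 3 of gtf2i/gtf2i. The summed CPM was 4418 to 5615 in wt, 4094 to 4487 in gtf2i and 6073 to 9451 in gtf2i/gtf2i. Blood content of the brains was not given by the labels, and the part of blood in other results was not tested.

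Other cell types that a brain sample can hold are read against 1.33% of all genes called higher. Of 24 endothelial genes 1 was called higher, the glucose transporter gene Slc2a1 (0.49, adjusted p = 0.0316), with a summed CPM of 747 to 879 in gtf2i and 927 to 1089 in gtf2i/gtf2i. Of 26 mesenchyme genes 2 were called higher, the matrix genes Col5a2 (0.50, adjusted p = 0.0253) and Lum (0.53, adjusted p = 0.0368), with 1929 to 2516 against 2233 to 3268 CPM. Those 3 calls were lost with the Kdm5c covariate, without any 1 library of gtf2i or without replicate 1 or 2 of gtf2i/gtf2i. Lum was lost also without replicate 2 of wt. Without replicate 3 of gtf2i/gtf2i, 4 endothelial and 11 mesenchyme genes were called higher, in a fit that called 528 of all 11708 genes higher. Of 9 microglia genes 0 were called (DESeq2 also 0), and 0 had an unadjusted p under 0.05, with a summed CPM of 113 to 138 in gtf2i against 126 to 153 in gtf2i/gtf2i. The defining genes P2ry12, Aif1 and Tyrobp were not in the table. Of 18 skeletal muscle and cartilage genes Col2a1 was the 1 in the table (-0.02, adjusted p = 0.953), and the muscle genes Myod1, Myog and Actc1 were not in it.

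Glycolysis and hypoxia genes had calls in both directions. Of 34 measured, 3 were called higher and 4 lower, and the median was 0.225. The higher genes were Slc16a3, Slc2a1 and Pdk1, the kinase that restrains pyruvate oxidation (0.54, adjusted p = 0.0358). The lower ones were Aldoc, Ndrg1, Eno2, the neuronal enolase (-0.65, adjusted p = 0.0125), and Hk1, a hexokinase (-0.45, adjusted p = 0.0242). No higher member was called without replicate 2 or 3 of gtf2i or replicate 1 or 2 of gtf2i/gtf2i, 1 was without replicate 1 of gtf2i, and 13 were without replicate 3 of gtf2i/gtf2i. Lower members numbered 1 without replicate 2 or 3 of gtf2i or replicate 2 of gtf2i/gtf2i and 2 without replicate 1 of gtf2i/gtf2i.

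Imprinted genes, which are transcribed from 1 parental allele and many of which regulate growth, had 5 called higher and 1 lower of 28, with a median of 0.0457. Kcnq1ot1, a noncoding RNA that silences its neighbours, was at 22.9, 21.9 and 22.4 CPM in wt, 13.8, 16.6 and 15.8 CPM in gtf2i and at 41.6, 27.7 and 29.2 CPM in gtf2i/gtf2i, a log2 fold change of 1.09 (SE 0.16, adjusted p = 0.0032). The gtf2i libraries were the lowest and the gtf2i/gtf2i libraries the highest. Cdkn1c, a growth inhibitor from the same cluster (0.43, adjusted p = 0.00909), H19 (0.64, adjusted p = 0.0104), Dlk1 (0.56, adjusted p = 0.0219) and Mest (0.48, adjusted p = 0.025) were the other rises, and Ndn (-0.38, adjusted p = 0.036) was the fall. Kcnq1ot1 was called in every leave-one-out fit, H19 was lost without replicate 2 of gtf2i, and Cdkn1c without replicate 2 of gtf2i or replicate 2 of gtf2i/gtf2i. Dlk1 was lost without any 1 library of gtf2i or without replicate 1 or 2 of gtf2i/gtf2i. The higher count was 1 without replicate 2 of gtf2i, 2 without replicate 2 of gtf2i/gtf2i and 3 without replicate 3 of gtf2i or replicate 1 of gtf2i/gtf2i. Ndn was lost without replicate 2 of wt, replicate 2 or 3 of gtf2i or replicate 1 or 2 of gtf2i/gtf2i, and 5 members were called lower without replicate 3 of gtf2i/gtf2i.

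Further lists without calls, beside the histone, microglia, sex-linked and muscle and cartilage lists, were the p53 targets (0 of 18, 7 with an unadjusted p under 0.05), the endoplasmic reticulum stress response (0 of 23, with 2), oxidative phosphorylation (0 of 96, with 2) and the clustered protocadherins (0 of 29, with 14), where 16.5% of all genes had such a p. DESeq2 called 1 p53 target and 0 in the other 3 of these lists. The protocadherins, which give neurons their surface identity, had 26 of 29 members below 0 and a median of -0.327. The members with the smallest p were Plk3 (0.49, adjusted p = 0.057), Ern1 (-0.30, adjusted p = 0.179), mt-Tc, a mitochondrial tRNA gene (0.45, adjusted p = 0.0826) and Pcdhb16 (-0.79, adjusted p = 0.0636). Without replicate 3 of gtf2i/gtf2i there were 4 calls among p53 targets, 2 in oxidative phosphorylation and 2 among protocadherins; 1 p53 target was called without replicate 3 of wt, and 1 protocadherin without replicate 1 of wt or replicate 1 of gtf2i/gtf2i. Of 73 ribosomal protein genes Rps4l was the 1 called, though 62 were above 0, and 18 were called higher without replicate 3 of gtf2i/gtf2i. Of 15 genes of the LSD1-CoREST complex, 1 was called lower, Zmym3 (-0.32, adjusted p = 0.0498), which was lost in 8 of the 9 leave-one-out fits, all but that without replicate 3 of gtf2i/gtf2i. Of 22 cholesterol and steroid genes, Hsd3b6 and the sterol carrier gene Stard4 (0.42, adjusted p = 0.0324) were called higher, and Stard4 was lost without any 1 library of gtf2i, gtf2i/gtf2i replicate 1 or 2 or replicate 2 of wt. Of 7 interferon-induced genes, Apobec3 was called higher (0.74, adjusted p = 0.039), and it was lost without any 1 library of gtf2i or without replicate 1 or 2 of gtf2i/gtf2i. Its level, 6.01, 3.58 and 3.81 CPM in wt, 11.2, 11.5 and 9.62 CPM in gtf2i and at 18.9, 19.5 and 15.6 CPM in gtf2i/gtf2i, was low, and the 3 genotypes did not overlap. DESeq2 called 2 interferon-induced genes, as did the fit without replicate 3 of gtf2i/gtf2i.

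Around the mutated locus, 24 genes of the Williams syndrome segment and its flanks were in the table. Gtf2ird1 was called higher and 4 were called lower: Gtf2i, Clip2, a microtubule linker next to Gtf2ird1 (-0.37, adjusted p = 0.0266), Galnt17, a glycosyltransferase gene (-0.82, adjusted p = 0.0177), and Caln1, a calcium-binding protein gene (-1.05, adjusted p = 0.0308). Clip2 was at 306, 332 and 354 CPM in gtf2i and at 257, 239 and 272 CPM in gtf2i/gtf2i, and Galnt17 at 36.1, 38.1 and 49.2 CPM and 23, 19.7 and 26.8 CPM. The groups did not overlap in either gene. Gtf2i alone was called lower without replicate 2 or 3 of gtf2i or replicate 1 or 2 of gtf2i/gtf2i. The median of the list was -0.0579. Rfc2, Eif4h and Limk1, the next genes beyond Clip2, were at log2 fold changes of 0.10, 0.04 and -0.04 and were not called.

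The second step was next set against the first, to show which genes changed unequally over the 2 steps on the log2 scale. The contrast took the log2 change from gtf2i to gtf2i/gtf2i minus that from wt to gtf2i, and it called 20 genes (0.171%), 9 with a positive and 11 with a negative difference. Both steps share the gtf2i libraries, so the spread of those 3 enters both of its parts. Gtf2i had -1.40 (SE 0.123, adjusted p = 0.000117): its log2 change was -0.76 in the first step and -2.16 in the second. For Gtf2ird1 the steps were 0.55 and 0.97, and the difference, 0.42 (SE 0.157, adjusted p = 0.479), was not called.

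Positive differences were led by Rps4l at 3.64 (SE 0.258, adjusted p = 1.51e-05), with steps of -0.50 and 3.14. Hsd3b6 had steps of -0.30 and 1.67, Pnpla6 of 0.18 and 1.32, and Dbx1 of -0.41 and 1.09. Negative differences included Ttr at -2.27 (SE 0.296, adjusted p = 0.00688), Neurod6 at -1.74 (SE 0.241, adjusted p = 0.00958), Aldoc at -1.92 (SE 0.267, adjusted p = 0.00958) and Tbr1 at -0.91 (SE 0.14, adjusted p = 0.0183), with first steps of 0.32, 0.22, 0.33 and 0.13. In each of these 8 genes the gtf2i/gtf2i libraries lay on 1 side of all 6 others. The others called were Neurod2, Nfix, Reln, Tiam2, Ndrg2 and Bdh1 with negative and Tmem267, Gas2l1, Fzd10, Kcnq1ot1 and Abca7 with positive differences. The count was 2 without replicate 2 of gtf2i, 3 without replicate 3 of gtf2i, 10 without replicate 1 of gtf2i or replicate 2 of wt, 11 without replicate 2 of gtf2i/gtf2i, 12 without replicate 1 of wt and 176 without replicate 3 of gtf2i/gtf2i, and DESeq2 called 73.

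**Figure D5:**
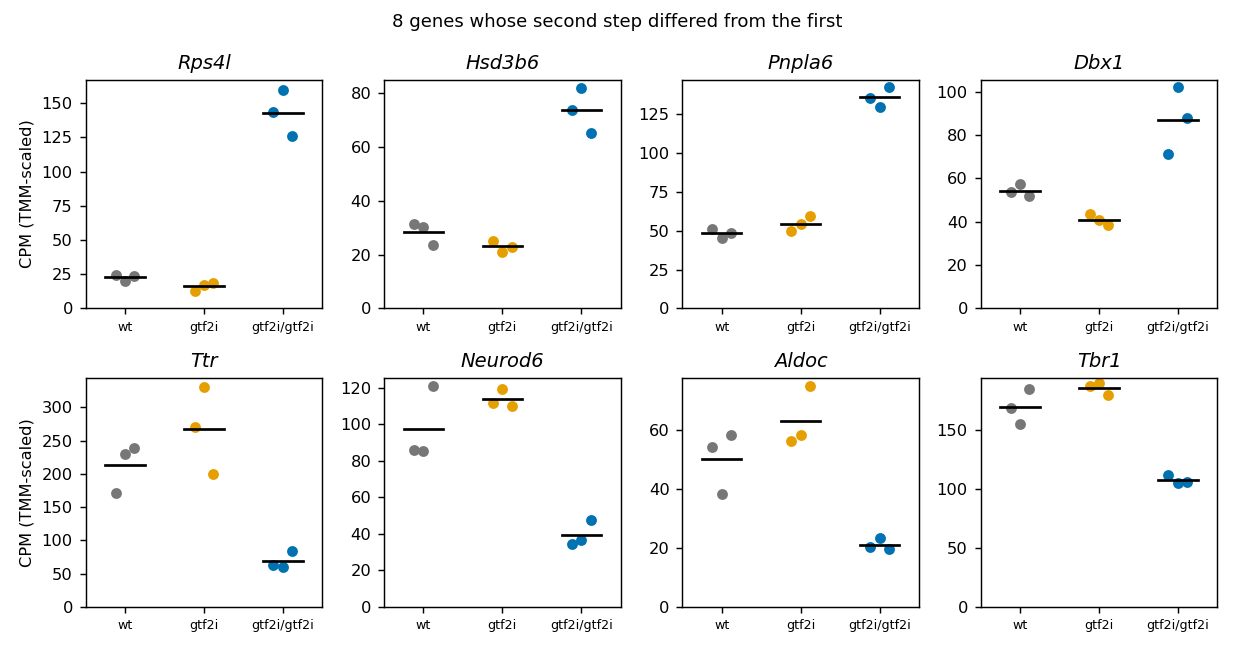
Level in each library of the gtf2i cross (points, TMM-scaled CPM on linear axes from 0, mean as a line) for 8 of the 20 genes whose second step differed from the first. In Rps4l the wt and gtf2i libraries lie at or below 24.4 CPM and the gtf2i/gtf2i libraries at or above 126 CPM, and Tbr1 lies at or above 155.5 CPM in wt and gtf2i and at or below 112 CPM in gtf2i/gtf2i.

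Loss of the second allele was also compared with the matching step of the ird1 cross, fitted over all 18 libraries. The ird1/ird1 against ird1 step had 1 called gene, Gtf2ird1, which was higher in ird1/ird1 (0.58), and 626 genes with an unadjusted p under 0.05, against 474 called genes and 1993 with such a p for the gtf2i/gtf2i against gtf2i step in the same fit. The difference between the steps was called for 96 genes (0.82%), 47 positive and 49 negative. Gtf2ird1 was not among them, with a difference of 0.40 (SE 0.126, adjusted p = 0.19). For Neurod6 the step in the ird1 cross was 0.28 and the difference -1.80 (SE 0.205, adjusted p = 6.44e-05), and for Reln they were 0.09 and -0.94 (SE 0.14, adjusted p = 0.00141). Rps4l, at -0.29 in the ird1 cross, differed by 3.44 (SE 0.274, adjusted p = 2.52e-07), and Pnpla6, at -0.23, by 1.55 (SE 0.158, adjusted p = 1.25e-05). Of the 31 cortical factors 13 were called in this contrast, of the 35 posterior genes 3 and of the 17 red blood cell genes 2. The count of 96 was 35 without replicate 2 of gtf2i/gtf2i, 44 without replicate 2 of ird1 or replicate 1 of ird1/ird1, 45 without replicate 3 of gtf2i, 50 without replicate 2 of gtf2i, 51 without replicate 1 of ird1, 52 without replicate 2 of ird1/ird1, 61 without replicate 1 of gtf2i/gtf2i and 488 without replicate 3 of gtf2i/gtf2i.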

How the data were processed

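RNA from whole E13.5 brains was freed of ribosomal RNA before NEBNext Ultra II library preparation, per the labels' protocols. The authors deposited raw counts (whole numbers, not normalized) of 11708 genes. Trimmomatic, STAR, HTSeq and the build mm10 are named in the submitters' processing notes; their versions and the strand setting are not given in the sources used here. The lowest gene of each library was at 2.9 to 3.09 CPM, so a gene silent in any library is not analysed here. The file also gave a transcript length per gene (absent for 8 genes).

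Counts were scaled by TMM and passed through filterByExpr, which left all 11708 genes, and tested with edgeR 4.0.16 (glmQLFit and glmQLFTest, Benjamini-Hochberg adjustment, R 4.3.3, limma 3.58.1). The main fit used the 9 libraries of the gtf2i cross, 3 groups, no block and 6 residual degrees of freedom; the difference between crosses used all 18. The SE was taken from the log2 fold change and its F statistic. The scripts were tested on simulated counts. Total counts were 4433537 to 7231162 in the gtf2i cross. A count of 10, the smallest in any library of the series, has a counting error of 31.6%, which covers counting only. All 9 pairs of libraries within a group of the gtf2i cross were further apart than counting noise allows (3.51 to 29.5 as chi-square over degrees of freedom), so none was taken for a duplicate.

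Named genes were the TFII-I family, the 12 largest called rises and 12 largest called falls without overlap, up to 4 called members of each list by p (2 by p where none was called), up to 10 genes by p in each difference contrast, and 3 paralogs, of which Hsd3b1 was not in the table. Other genes given as called members of a list, and the promoter shown, were chosen after their values were seen, and some called members are not reported here. The members and the 29 gene lists were chosen with earlier results of these data known. Promoter sequences came from RefSeq (GRCm38.p6). Symbols of 11392 genes matched RefSeq. Alternatives were DESeq2 1.42.0, other scaling and filters, a replicate block, removal of length trends, other sets of libraries, a Kdm5c covariate and the omission of each library. Omission of genes above 0.4% of the counts, and of gtf2i/gtf2i replicate 3 together with wt replicate 3, were chosen after seeing the data.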

Additional observations from a re-analysis of the deposited data

Results flagged for a closer look

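For 33 of the named genes the change from 1 to 2 mutant alleles differed between the gtf2i cross and the ird1 cross, by edgeR's interaction contrast over 18 libraries with an adjusted p under 0.05. The values are the log2 step in the gtf2i cross minus that in the ird1 cross. Positive differences were found for Rps4l 3.44, Hsd3b6 2.14, Nxt2 1.77, Gm38534 1.75, Pnpla6 1.55, Tmem267 1.55, Slc4a1 1.52, Slc16a3 1.47, Shh 1.46, Pax3 1.33, Gas2l1 1.28, Dbx1 1.20, Hbb-y 1.18, Fzd10 0.94, Lhx5 0.86, Ccnd1 0.85, Hes5 0.80, Efna2 0.76 and Cdkn1c 0.51. Negative differences were found for Ttr -2.20, Gtf2i -2.17, Neurod6 -1.80, Tiam2 -1.66, Tnc -1.56, Slc30a10 -1.49, Aldoc -1.43, Neurod2 -1.30, Nfix -1.28, Gpr26 -1.22, Sema3c -1.11, Reln -0.94, Tbr1 -0.78 and Efnb2 -0.62. Adjusted p-values ran from 1.04e-11 (Gtf2i) to 0.0403 (Hbb-y). The genes were named for their change in the gtf2i cross, which is 1 side of this contrast. Groups of 3 libraries were not screened gene by gene for outlying libraries.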

How the results depend on the processing

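The count of calls between gtf2i/gtf2i and gtf2i, 365, ran from 67 to 1376 over the 9 fits that left out 1 library (33 to 528 higher, 34 to 848 lower). It was 343 to 505 under DESeq2, relative log expression scaling, no filter, a mean CPM of at least 5, removal of the length trend, the 6 libraries alone, all 18 libraries and omission of the most abundant genes. The Kdm5c covariate gave 161 (96 higher, 65 lower), and leaving out replicate 3 of gtf2i/gtf2i and wt together gave 1482 (561 higher, 921 lower).

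With the title number as a replicate block the count was 892 (333 higher, 559 lower), with the block plus length correction 1096 (431 higher, 665 lower), and in the 6 libraries alone with the block 573 (341 lower). The block called 17 neuron genes lower against 3 without it, and 16 cortical factors against 14. The labels do not say what the number marks. Deviations from the group means of same-numbered gtf2i/gtf2i and gtf2i libraries correlated at 0.115, 0.0613 and 0.0568, and each library correlated best with its own number, a hint from the data and not the design.

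The count of differences between steps, 20, was 73 under DESeq2, 119 with the block, 205 with the block plus length correction, and 2 to 176 with 1 library left out. The difference between crosses, 96, was 154 under DESeq2, 190 with the block, 202 with the block plus length correction, and 35 to 488 with 1 library left out. Gtf2i kept its call in every fit (-2.17 to -2.14). Over the named genes, 1492 of 1680 values kept their side of the threshold, 157 lost a call, 31 gained one and 0 reversed. Genes silent in 1 genotype and differences within the spread of 3 libraries were out of reach.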
